A study of Mus musculus with 18 samples.

Results

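Glucocorticoid-responsive genes with Fmo2 and Plin4 were 10 of the 18193 genes read by the arrays: Fmo2, Plin4, Fkbp5, Tsc22d3, Sgk1, Zbtb16, Cdkn1a, Sult1a1, Pdk4 and Mt2. They were picked by name, with earlier results of these arrays in view, for their values after 2 days of MPTP against control and against 10 days in each region. They were followed through the 22 probe sets that carry no other gene symbol. The differences between treatments that chose them are therefore given as descriptions, with standard errors and no test. Differences between the 2 regions played no part in the choice and were tested.

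Glucocorticoids are adrenal steroids released with stress and with the daily rhythm. They enter the cell, bind the glucocorticoid receptor, release it from its heat shock protein chaperones and move it to the nucleus, where it binds palindromic DNA elements and switches target genes on. Fkbp5, Tsc22d3, Sgk1 and Zbtb16 are among the targets most often used to read this signal in brain, and many targets respond more in glia and in blood vessel cells than in neurons.

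The arrays were Affymetrix mouse whole-genome arrays run on RNA of dopamine neurons that had been cut out with a laser from 2 midbrain regions of adult C57Bl/6 mice, the substantia nigra (SN) and the neighbouring ventral tegmental area (VTA). All mice carried the hTH-GFP transgene, a green fluorescent reporter driven by human tyrosine hydroxylase sequences, and all were housed singly for 9 weeks. MPTP is converted in the brain to a poison of mitochondrial complex I, which enters dopamine neurons through their dopamine transporter. The 6 groups of 3 arrays were SN and VTA of mice given saline for 10 days, MPTP at 4 mg/kg for 2 days, or MPTP at 4 mg/kg for 10 days, each killed 7 days after the last injection. The sample descriptions call the controls untreated where the protocol gives saline. The 2 day groups also had 2 rather than 10 days of injections, so the length of handling and of MPTP cannot be told apart. The labels do not tie an array to a mouse or say how neurons were recognised.

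The values are log2 signals centred by probe set, so that 0 is the median of a probe set over the 18 arrays. Absolute levels and detection calls are therefore lost, and neither the dopamine neuron label nor the order of genes by level can be checked from them. The number of arrays limits the precision. In a captured sample, fewer cells of a type and less RNA per cell cannot be told apart. Median absolute deviations over all probe sets were 0.235 on SN control array 1 and 0.269 on VTA 2 day array 1. They were 0.123 to 0.204 on the other arrays. Several of the results that turn on SN control array 1 or VTA 2 day array 1 are also given without that array. The mean of dopamine neuron markers differed between treatments, although 0 of them passed limma's test and their part in the results was not tested. This mean over 17 measured of 18 listed genes ran from 0.37 to 0.93 on the SN control arrays, from -0.60 to -0.15 after 2 days and from -0.19 to 0.31 after 10 days. In VTA it ran from -0.61 to 0.69, from -0.85 to 0.14 and from -0.36 to 0.59.

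The promoters are shown for the genes with the clearest 2 day difference, Fmo2 and Plin4, and for Sgk1, which alone held a full glucocorticoid response element. Mt2 is shown for its matches to TGCNCNC, a loose pattern for the metal response element. RefSeq sequences of GRCm38.p6, 250 bases before to 50 bases after a start site, were at hand for 9 of the 10 genes, all but Zbtb16, with 18 promoters in all. Each is written 5′ to 3′ in the direction of transcription. Capitals mark glucocorticoid letters in the first 3, either the full element, which is the arm GNACA and the arm TGTNC with any 3 letters between them, or the shorter motif AGAACA that covers one side of it, and the metal response element TGCNCNC in Mt2, all searched on both strands. The shorter motif can overlap a full element.
Fmo2, chr1:162898444-162898743, minus strand: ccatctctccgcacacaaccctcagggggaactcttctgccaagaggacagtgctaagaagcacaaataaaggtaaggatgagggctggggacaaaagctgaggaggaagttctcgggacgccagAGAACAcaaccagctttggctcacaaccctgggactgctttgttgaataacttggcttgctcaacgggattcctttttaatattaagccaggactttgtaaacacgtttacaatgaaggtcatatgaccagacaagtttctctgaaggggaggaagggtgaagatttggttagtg
Plin4, chr17:56109733-56110032, minus strand: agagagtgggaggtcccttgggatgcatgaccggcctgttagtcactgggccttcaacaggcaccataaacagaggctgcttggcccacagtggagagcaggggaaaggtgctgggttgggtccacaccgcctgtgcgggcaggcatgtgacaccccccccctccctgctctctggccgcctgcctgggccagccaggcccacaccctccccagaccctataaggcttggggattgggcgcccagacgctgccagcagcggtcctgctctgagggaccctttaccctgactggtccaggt
Sgk1, chr10:21993640-21993939, plus strand: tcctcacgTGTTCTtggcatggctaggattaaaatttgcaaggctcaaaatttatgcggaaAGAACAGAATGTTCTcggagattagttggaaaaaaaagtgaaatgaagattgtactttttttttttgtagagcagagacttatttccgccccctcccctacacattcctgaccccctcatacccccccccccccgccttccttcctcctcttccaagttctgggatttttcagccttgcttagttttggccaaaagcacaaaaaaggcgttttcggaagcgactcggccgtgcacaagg
Mt2, chr8:94172368-94172667, plus strand: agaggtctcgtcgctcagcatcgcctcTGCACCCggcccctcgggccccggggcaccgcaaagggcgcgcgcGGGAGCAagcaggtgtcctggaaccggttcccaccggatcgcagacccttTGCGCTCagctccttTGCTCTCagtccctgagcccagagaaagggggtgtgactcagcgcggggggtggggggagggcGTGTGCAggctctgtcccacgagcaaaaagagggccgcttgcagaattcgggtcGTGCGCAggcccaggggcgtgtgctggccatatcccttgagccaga

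The full element was found in 1 of the 18 promoters and in 156 of all 32851 promoters, or 0.475%. It lies 188 bases before the start of the Sgk1 promoter shown, which is 1 of 6 for that gene, and 2 of the 3 shorter motifs there overlap it. The other one begins 242 bases before the start. The shorter motif was found in 6 of the 18 promoters and in 19.0% of all promoters. The Fmo2 promoter shown, 1 of 2 for that gene, has a shorter motif beginning 125 bases before the start. The Plin4 promoter has neither in this window, and its 3 matches to TGCNCNC are left in lower case. TGCNCNC was found in 7 of the 18 and in 51.0% of all promoters, so single matches are common. The Mt2 promoter holds 6 matches, a number reached or passed by 0.225% of promoters. A match is a run of letters and says nothing of binding.

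Fmo2 was higher after 2 days of MPTP than in controls in both regions and stood near the control level after 10 days. It encodes a flavin-containing monooxygenase, an enzyme that oxidises drugs and other compounds at nitrogen and sulfur. In SN its centred log2 values were -0.46, 0.11 and -0.08 on the control arrays, 1.05, 1.03 and 0.73 after 2 days, and -0.26, -0.24 and -0.04 after 10 days. In VTA they were -0.29, 0.00 and 0.04 in controls, 1.03, 0.67 and 0.49 after 2 days, and -0.30, -0.22 and -0.25 after 10 days. All 6 arrays of the 2 day groups lay above all 12 others. The 2 day group was 2.11-fold above control in SN (log2 difference 1.08 ± 0.17, SE, 3 arrays per group) and 1.76-fold above it in VTA (0.82 ± 0.17). Without SN control array 1 the SN difference was 0.92, and without VTA 2 day array 1 the VTA difference was 0.67. After 10 days Fmo2 was 1.11 and 0.99 lower on the log2 scale than after 2 days (SE 0.17 each), and it differed from control by -0.03 in SN and -0.17 in VTA (SE 0.17 each). The comparisons of 2 days with control and of 10 with 2 days share the 2 day arrays.

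The size of the Fmo2 difference depended on the probe set. Of its 5 probe sets, 1453435_a_at was 2.33 above control in SN and 1.94 in VTA after 2 days. The difference was 1.40 and 1.22 for 1422905_s_at, and 1.43 and 0.54 for 1435459_at, with VTA arrays overlapping in the last. For 1422904_at it was 0.17 and 0.40, and for 1454005_at 0.06 and -0.02. The mean over probe sets therefore lies below the 3 probe sets that differed most in SN and above the pair that differed little. Over the 18 arrays, correlations between pairs of Fmo2 probe sets ran from -0.18 to 0.82. As no levels are known, probe sets that read the transcript poorly cannot be set aside.

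Plin4 was also higher after 2 days in both regions, and it went below the controls after 10 days. Plin4 encodes perilipin 4, a protein that coats lipid droplets. Its values in SN were 0.07, 0.17 and -0.29 in controls, 0.40, 1.06 and 0.65 after 2 days, and -0.97, -0.86 and -0.07 after 10 days. In VTA they were -0.41, 0.10 and -0.67, then 0.49, 0.57 and 1.18, then -1.25, -1.11 and -0.68. As with Fmo2, all 6 arrays of the 2 day groups lay above the other 12. The 2 day difference was 1.65-fold in SN (0.72 ± 0.27) and 2.10-fold in VTA (1.07 ± 0.27). Between 2 and 10 days the difference was -1.34 ± 0.27 in SN, or 2.52-fold lower, and -1.76 ± 0.27 in VTA, or 3.39-fold lower. Against control the 10 day groups were at -0.61 ± 0.27 in SN, where array 3 overlapped the controls, and at -0.69 ± 0.27 in VTA, where no array did. Plin4 rests on a single probe set.

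**Figure D1:**
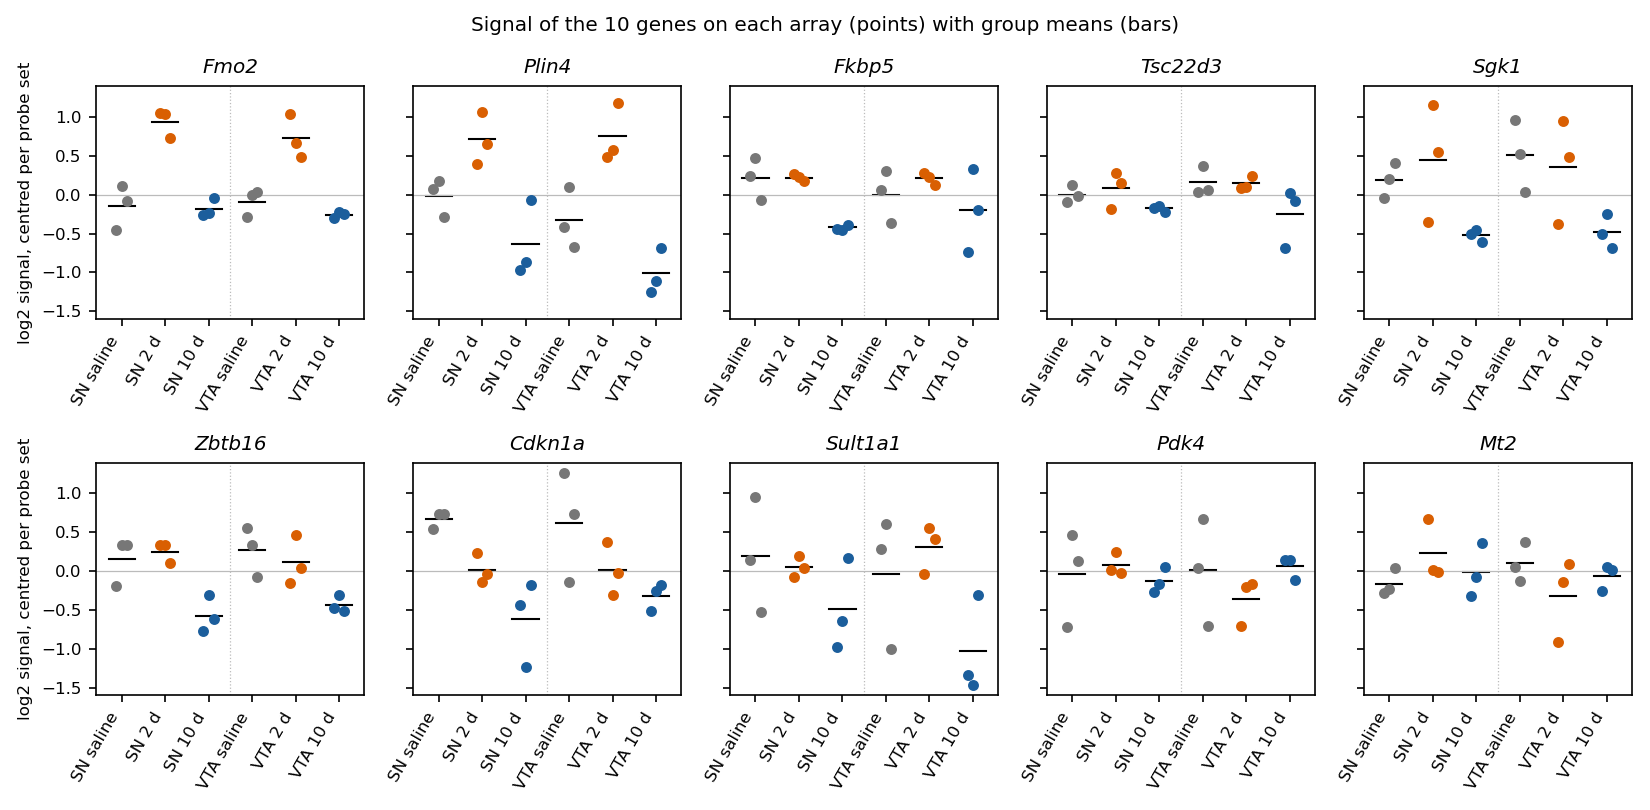
Centred log2 signal (y axis) of each of the 10 genes on the 18 arrays, by region and treatment (x axis). Points are arrays, bars are means of 3 arrays, and the dotted line divides SN from VTA. Fmo2 and Plin4 stand highest on the 6 arrays of the 2 day groups. The 10 day groups have the lowest means for every gene but Pdk4 and Mt2, although Fmo2 lies near its controls there.

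Only Fmo2 and Plin4 among the 10 genes stood above control after 2 days with no overlap between arrays in either region. They made 2 of 10 genes in SN, where 5.96% of all genes stood above control in this way, and 2 of 10 in VTA, against 5.10% of all genes. In both regions at once the pattern was met by 0.984% of all genes. Cdkn1a lay below control without overlap in SN, 1 of 10 against 8.56% of all genes, and 0 of 10 did so in VTA, against 4.92%. These shares are printed as background, since the genes were chosen on these contrasts. The median difference of the 10 genes after 2 days was 0.11 in SN and -0.08 in VTA, beside medians of -0.027 and -0.008 over all genes. The name glucocorticoid-responsive is thus background knowledge of these genes, and after 2 days no common difference of the 10 went with it.

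As means of their probe sets, the classical readouts of the receptor differed little from control after 2 days. Fkbp5, which encodes a co-chaperone that limits receptor activity, was at 0.24, 0.47 and -0.07 in SN controls, 0.27, 0.23 and 0.17 after 2 days, and -0.44, -0.45 and -0.39 after 10 days. In VTA it was at 0.06, 0.31 and -0.37, then 0.28, 0.23 and 0.13, then -0.74, 0.33 and -0.20. The 3 SN arrays after 10 days lay below every other SN array, while in VTA the groups overlapped. The differences after 2 days were 0.01 ± 0.22 in SN and 0.21 ± 0.22 in VTA. By probe set they were -0.05 and 0.57 for 1416125_at, 0.14 and -0.05 for 1448231_at, and -0.06 and 0.12 for 1447736_at, all with overlap. Comparing 10 with 2 days, the gene differed by -0.65 ± 0.22 in SN and -0.41 ± 0.22 in VTA. The VTA value lay between -0.68 and -0.14 with 1 array left out, the extremes being without VTA 10 day arrays 2 and 1. Among its 3 probe sets, 1416125_at was lower from 2 to 10 days by 0.91 in SN and 1.11 in VTA, 1448231_at by 1.10 and 0.23, and 1447736_at was at 0.07 and 0.09. With the probe set of largest SD over the arrays, the SN difference from control after 10 days was -0.96 instead of -0.64.

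Tsc22d3, which encodes the glucocorticoid-induced leucine zipper protein, differed little after 2 days in the mean of its probe sets and was slightly lower after 10 days. In SN it was at -0.10, 0.12 and -0.02 in controls, -0.18, 0.28 and 0.15 after 2 days, and -0.17, -0.14 and -0.22 after 10 days. The VTA values were 0.04, 0.37 and 0.06, then 0.09, 0.10 and 0.24, then -0.69, 0.02 and -0.08. The 10 day arrays lay below all control arrays of their region, by a mean of 0.17 ± 0.17 in SN and 0.41 ± 0.17 in VTA on the log2 scale. These values rest on few arrays: the VTA difference was -0.19 without VTA 10 day array 1, and the SN difference was -0.11 without SN control array 2. Against the 2 day arrays the difference was -0.26 ± 0.17 in SN, with overlap, or -0.16 without SN 2 day array 2, and -0.40 ± 0.17 in VTA, or -0.18 without VTA 10 day array 1. The 4 probe sets spread widely, and 1420772_a_at gave -0.55 in SN and -0.59 in VTA between 10 days and control, with arrays overlapping. Probe set 1425281_a_at differed from control by 0.37 in SN and -0.36 in VTA after 2 days, without overlap in either, and 1444365_at was at 0.08 in SN and -0.33 in VTA between 10 days and control.

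Sgk1 varied widely between arrays of the 2 day groups and was low after 10 days. It encodes the serum- and glucocorticoid-regulated kinase, which acts on ion channels and transporters. Its values were -0.04, 0.20 and 0.41 in SN controls, -0.35, 1.15 and 0.55 after 2 days, and -0.50, -0.46 and -0.61 after 10 days. In VTA they were 0.96, 0.52 and 0.04, then -0.38, 0.94 and 0.49, then -0.50, -0.25 and -0.69. After 2 days, array 1 was low and array 2 high in both regions. All 6 arrays after 10 days lay below all 6 control arrays, by 0.72 ± 0.35 in SN and 0.98 ± 0.35 in VTA on the log2 scale. The 10 day minus 2 day difference was -0.97 ± 0.35 in SN, or -0.62 without SN 2 day array 2. In VTA it was -0.83 ± 0.35, with overlap, or -0.53 without VTA 2 day array 2. The 2 day differences from control, 0.26 and -0.16, were within 1 SE, and leaving out 1 array moved them between -0.10 and 0.66 in SN and between -0.45 and 0.21 in VTA.

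Zbtb16 was lower after 10 days than in either other group of its region. It encodes the zinc finger transcription factor PLZF and is strongly induced by glucocorticoids in many cells. It was at -0.19, 0.33 and 0.33 in SN controls, 0.33, 0.33 and 0.10 after 2 days, and -0.77, -0.31 and -0.61 after 10 days. Its VTA values were 0.55, 0.34 and -0.08, then -0.15, 0.46 and 0.04, then -0.47, -0.30 and -0.51. The 6 arrays after 10 days were the lowest of the 18. The difference from control after 10 days was -0.72 ± 0.20 in SN, or 1.65-fold lower, and -0.69 ± 0.20 in VTA, or 1.62-fold lower. The difference between 10 and 2 days was -0.82 and -0.54, whereas 2 days differed from control by 0.10 and -0.15. Of its 3 probe sets, 1427638_at gave -0.78 and -0.92 between 10 days and control, 1439163_at -0.84 and -1.02, and 1419874_x_at -0.55 and -0.15.

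As the mean of its probe sets, Cdkn1a was lower after 2 days and lower again after 10 days. It encodes a cyclin-dependent kinase inhibitor that glucocorticoids and DNA damage both induce. In SN it was at 0.54, 0.73 and 0.74 in controls, 0.23, -0.14 and -0.04 after 2 days, and -0.44, -1.23 and -0.18 after 10 days. In VTA the values were 1.26, -0.14 and 0.73, then 0.38, -0.30 and -0.02, then -0.51, -0.25 and -0.18. In SN none of the 3 groups overlapped, and in VTA only 10 days and control stood apart. The 10 day difference from control was -1.29 ± 0.30 in SN, or 2.44-fold lower, and -0.93 ± 0.30 in VTA, or -0.61 without VTA control array 1. The 2 day difference was -0.65 and -0.60 (SE 0.30 each), the latter at -0.28 without VTA control array 1. The 10 day minus 2 day difference was -0.63 ± 0.30 in SN, or -0.33 without SN 10 day array 2, and -0.34 ± 0.30 in VTA, or -0.16 without VTA 2 day array 1. Both probe sets were lower after 10 days than in control, by 1.62 and 0.95 in SN and by 1.13 and 0.74 in VTA. In VTA the arrays of both overlapped control. From 2 to 10 days 1421679_a_at was at -1.04 in SN and, with overlap, at -0.68 in VTA. Probe set 1424638_at was at -0.23 and 0.01 there, with overlap in both regions. The further drop after 10 days thus rests mainly on 1421679_a_at.

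Sult1a1, which encodes a phenol sulfotransferase that conjugates phenolic drugs and catecholamines, was lowest in VTA after 10 days. Its VTA values were 0.28, 0.60 and -1.0 in controls, -0.04, 0.55 and 0.41 after 2 days, and -1.33, -1.46 and -0.30 after 10 days. In SN they were 0.14, 0.95 and -0.52, then -0.08, 0.20 and 0.04, then -0.98, -0.64 and 0.17. The 10 and 2 day groups stood apart in VTA and overlapped in SN, with control array 3 low in both regions. The 10 day arrays differed from the 2 day arrays by -1.34 ± 0.43 in VTA, or 2.52-fold lower, and by -0.54 ± 0.43 in SN, where it was -0.86 without SN 10 day array 3 and -0.29 without array 1. Against control the 10 day groups were at -0.68 and -0.99 (SE 0.43 each), and the range with 1 array left out was -1.03 to -0.30 in SN and -1.47 to -0.67 in VTA.

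Pdk4 and Mt2 differed little between treatments. Pdk4 encodes a pyruvate dehydrogenase kinase that spares glucose during fasting. It was at -0.72, 0.47 and 0.13 in SN controls, 0.02, 0.25 and -0.02 after 2 days, and -0.27, -0.17 and 0.05 after 10 days. In VTA it was at 0.04, 0.67 and -0.70, then -0.71, -0.20 and -0.17, then 0.14, 0.14 and -0.12. The control arrays spanned the widest range in both regions, and the groups overlapped except that VTA after 10 days lay above VTA after 2 days, by 0.42 ± 0.30, or 0.24 without VTA 2 day array 1. Mt2 encodes a metallothionein, which binds zinc and copper and answers metals as well as glucocorticoids. It was at -0.28, -0.23 and 0.04 in SN controls, 0.67, 0.02 and -0.01 after 2 days, and -0.32, -0.08 and 0.36 after 10 days. In VTA it was at 0.05, -0.13 and 0.38, then -0.91, -0.14 and 0.09, then -0.25, 0.05 and 0.01. All Mt2 groups overlapped, and its differences between treatments ran from -0.43 to 0.38 with an SE of 0.25. Without VTA 2 day array 1, its VTA difference after 2 days went from -0.43 to -0.13. From 2 to 10 days the VTA difference then went from 0.26 to -0.03.

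**Figure D2:**
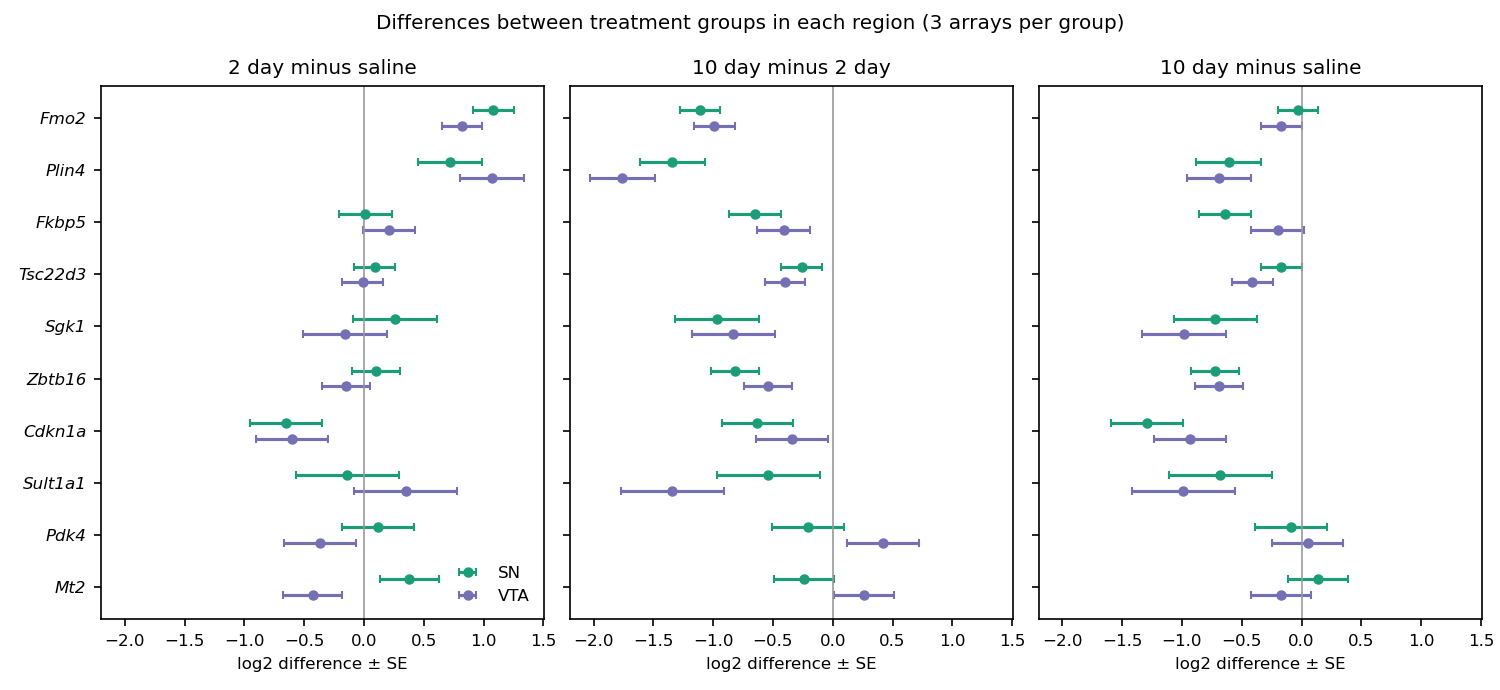
Differences between treatment groups (x axis, log2, points with bars of 1 SE) for each gene (y axis) in SN and VTA, with 3 arrays per group. After 2 days Fmo2 and Plin4 are alone far to the right (0.72 to 1.08), and 10 days minus 2 days places 8 of the 10 genes left of 0 in both regions.

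Across the set, the 10 day groups stood lower. From 2 to 10 days the median difference of the 10 genes was -0.64 in SN and -0.48 in VTA, beside 0.009 and 0.000 over all genes. Without overlap between arrays, 6 of 10 were lower in SN, against 5.02% of all genes, and 0 of 10 were higher, against 6.10%. In VTA 5 of 10 were lower, against 5.13%, and 1 of 10, Pdk4, was higher, against 5.11%. Fmo2, Plin4 and Zbtb16 were lower without overlap in both regions, as were 0.759% of all genes. The genes were chosen partly for this contrast, so nothing is read from the excess.

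Between 10 days and control the median was -0.62 in SN and -0.55 in VTA, beside -0.017 and -0.005 over all genes. Without overlap, 5 of 10 were lower in SN, against 6.27% of all genes, and 5 of 10 in VTA, against 4.53%. Tsc22d3, Sgk1, Zbtb16 and Cdkn1a were lower without overlap in both regions, as were 0.528% of all genes. Except for Sgk1, with its single probe set, this holds for means of probe sets. Taken singly, both Cdkn1a probe sets overlapped control in VTA, and every Tsc22d3 probe set did so in SN. For Zbtb16, 1427638_at stood apart in both regions, while 1439163_at overlapped in SN and 1419874_x_at in VTA. As the mean of its probe sets, Fmo2 was near the control level here. Its probe set 1435459_at was at -0.83 in VTA, with overlap, and all its other values lay between -0.22 and 0.09. Plin4 met the criterion in VTA and not in SN. The comparisons of 2 and of 10 days with control share the control arrays, and this last difference is the sum of the other 2. The same 10 genes therefore followed several courses. Fmo2 and Plin4 were high after 2 days. Sgk1, Zbtb16 and Cdkn1a were low after 10 days, with smaller differences for Tsc22d3. Fkbp5 was low after 10 days in SN. In VTA it was at -0.20 ± 0.22 against control, with overlap, or at 0.07 without VTA 10 day array 1. Sult1a1 was low after 10 days with overlap against control in both regions. Pdk4 and Mt2 were neither high after 2 days nor low after 10 days in both regions.

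**Figure D3:**
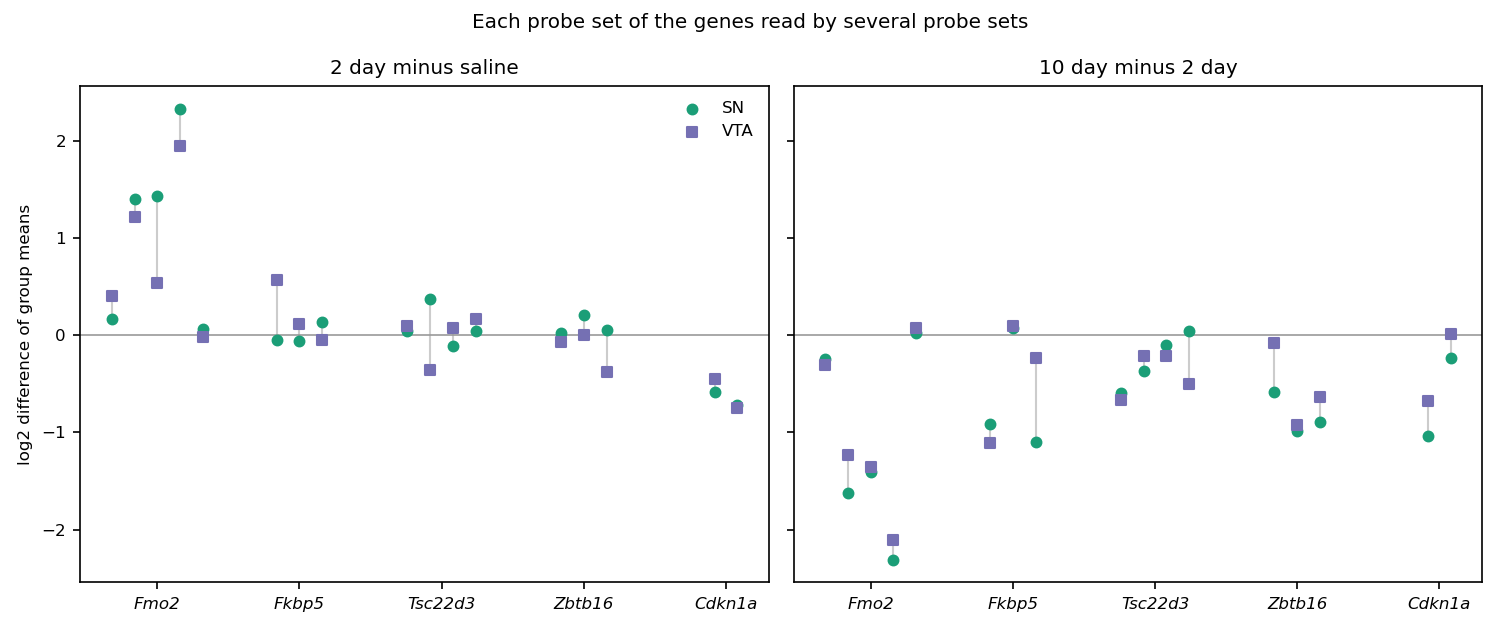
Difference of group means (y axis, log2) of each probe set for the 5 genes with several probe sets (x axis), after 2 days against control and after 10 against 2 days. Circles are SN, squares VTA, and a line joins both values of 1 probe set. For Fmo2, 3 of 5 probe sets lie far above 0 on the left and far below 0 on the right, and the other 2 lie between -0.31 and 0.40.

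Between regions, none of the 10 genes passed at any treatment. Limma gave 0 of 10 with an adjusted p below 0.05 for VTA minus SN in controls, after 2 days, after 10 days and over all treatments, with smallest adjusted p of 1.0, 1.0, 1.0 and 0.972. At an unadjusted p under 0.05 the counts were 0, 1, 0 and 0 of 10, against 4.36%, 2.79%, 2.99% and 4.2% of all 18193 genes, of which 0.0% passed after adjustment in each. The differences lay between -0.31 and 0.31 in controls, between -0.55 and 0.25 after 2 days, and between -0.55 and 0.30 after 10 days. For Fmo2 they were 0.06 ± 0.17, -0.20 ± 0.17 and -0.08 ± 0.17, and for Plin4 -0.31, 0.04 and -0.38 (SE 0.27 each). A p above the threshold does not show that the regions were alike.

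The gene at an unadjusted p under 0.05 was Mt2, at -0.55 ± 0.25 in VTA minus SN after 2 days (limma adjusted p = 1.0). It rested on 1 array, since the difference was -0.26 without VTA 2 day array 1. Pdk4 was lower on all 3 VTA arrays than on all 3 SN arrays after 2 days, at -0.44 ± 0.30, or -0.27 without VTA 2 day array 1, 1 of 10 genes against 3.55% of all genes lower in this way, and 0 of 10 were higher against 4.99%. Subtracting the region's own control, the 2 day response of Mt2 in VTA minus that in SN was -0.81 ± 0.36, or -0.52 without VTA 2 day array 1. For Plin4 it was 0.35 ± 0.39. Arrays of both regions could share mice, which these errors do not take into account.

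Levels of a gene could be ordered over the 6 groups only relative to its own median. For Fmo2 the order of means was SN and VTA after 2 days (0.93 and 0.73, overlapping), then a clear step to VTA control, SN control, SN after 10 days and VTA after 10 days (-0.09 to -0.26, each overlapping its neighbour). For Plin4 it was VTA and SN after 2 days (0.75 and 0.71), a clear step, then SN control (-0.02), VTA control (-0.32), SN after 10 days (-0.63) and VTA after 10 days (-1.01), each overlapping the next. For Zbtb16 the step lay at the other end, and both 10 day groups stood below all arrays of the other 4 groups. For Cdkn1a, Sgk1 and Tsc22d3 the lowest group other than the 10 day groups stood apart from the 10 day group next to it in the order, while some 10 day arrays overlapped 2 day arrays. Fkbp5, Sult1a1, Pdk4 and Mt2 had no step at all, as every neighbouring pair of groups overlapped.

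Other glucocorticoid targets were mostly lower after 10 than after 2 days, and 0 passed in either region. The list held 32 targets known from other tissues and cells, and 30 were measured. After 2 days 20 were higher and 10 lower in SN (median 0.07), and 15 were higher and 15 lower in VTA (median 0.00), where 44.7% and 48.4% of all genes were higher. From 2 to 10 days 24 of 30 were lower in SN (median -0.18) and 22 of 30 in VTA (median -0.11), where 52.1% and 50.1% of all genes were higher. Without overlap 8 were lower and 0 higher in SN, and 3 were lower and 2 higher in VTA, beside 5.02% and 5.13% of all genes lower in this way. Limma called 0 of 30 in each of these comparisons, with smallest adjusted p of 0.713, 0.579, 0.932 and 0.703, and called 0.0%, 0.011%, 0.0165% and 0.033% of all genes. At an unadjusted p under 0.05 there were 2, 1, 4 and 3 genes, against 6.65%, 8.06%, 3.02% and 6.34% of all genes.

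Named targets gave a mixed picture after 2 days. Fam107a, a stress-induced regulator of actin, was at 0.53 ± 0.22 in SN (adjusted p = 0.713), and the astrocyte gap junction gene Gjb6 was at 0.42 ± 0.20 (adjusted p = 0.742). Klf15, a transcription factor of fasting metabolism, was at 0.41 ± 0.20 in VTA (adjusted p = 0.623), whereas Txnip, an inhibitor of thioredoxin, was at -0.75 ± 0.31 and Plekhf1 at -0.84 ± 0.41 (adjusted p = 0.579 and adjusted p = 0.634). Later, from 2 to 10 days, the heparan sulfate proteoglycan gene Sdc4 was at -0.64 ± 0.17 in SN (adjusted p = 0.932), Hif3a at -0.57 ± 0.19 (adjusted p = 1.0) and Fam107a at -0.61 ± 0.22 (adjusted p = 1.0). In VTA the clock gene Per1 was at -0.89 ± 0.33 (adjusted p = 0.703) and the transcription factor gene Klf9 at -0.29 ± 0.13 (adjusted p = 0.772). Other targets rose from 2 to 10 days. In VTA Agt was at 0.56 ± 0.26 (limma adjusted p = 0.774). Cdkn1c was at 0.83 ± 0.42 and Txnip at 0.60 ± 0.31 there, both without overlap (limma adjusted p = 0.825 and adjusted p = 0.827). In SN Rasd1 was at 0.32 ± 0.16, with overlap. Averaged over both regions, 0 of 30 passed from 2 to 10 days, against 0.126% of all genes. With array weights limma called 125 of all 18193 genes here, where the unweighted fit called 23. Fam107a then passed at -0.62 ± 0.12 (adjusted p = 0.0232). Sdc4 passed at -0.49 ± 0.11 (adjusted p = 0.0407), as did Hif3a at -0.52 ± 0.11 (adjusted p = 0.0438). The list was chosen with earlier results of these data known, so these calls are no independent evidence.

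**Figure D4:**
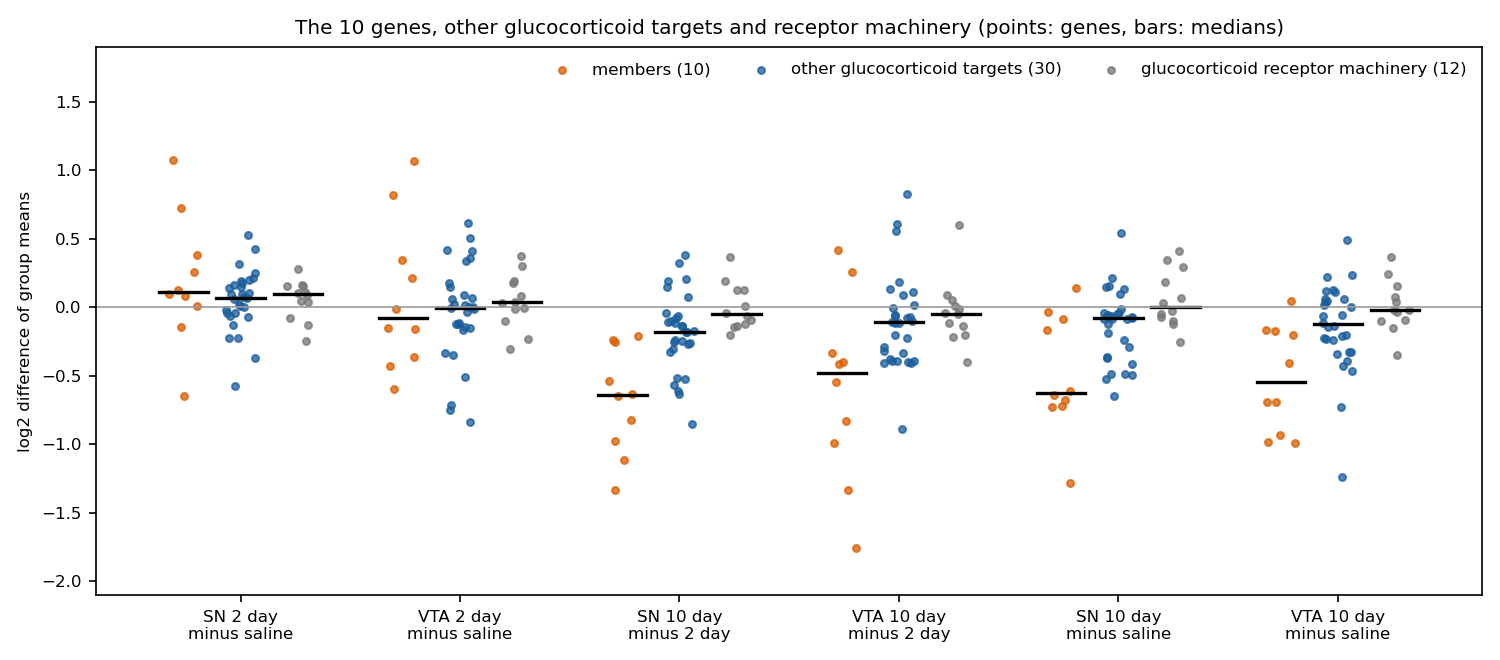
Difference of group means (y axis, log2) in 6 comparisons (x axis) for the 10 genes (called members in the legend), 30 other glucocorticoid targets and 12 genes of the receptor machinery. Points are genes and bars are medians. From 2 to 10 days the medians of the 10 genes are -0.64 and -0.48 and those of the other targets -0.18 and -0.11, while the receptor machinery is at -0.05 in both regions.

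Genes of the receptor and its partners gave no call. Of 17 listed, 12 were measured, and 0 passed in any comparison of treatments. Between 10 days and control limma called 0.0055% of all genes in SN and 0.011% in VTA. The list's medians were 0.10 in SN and 0.04 in VTA after 2 days, and -0.05 in both regions from 2 to 10 days. After 2 days 9 of 12 were higher in SN and 7 of 12 in VTA, and 0 and 1 of 12 had an unadjusted p under 0.05. The chaperone gene Hspa8 was at 0.38 ± 0.13 in VTA after 2 days (adjusted p = 0.487), Fkbp4, the co-chaperone that acts opposite to Fkbp5, at -0.13 ± 0.17 in SN and 0.03 ± 0.17 in VTA, and the mineralocorticoid receptor gene Nr3c2 at 0.60 ± 0.39 in VTA from 2 to 10 days (adjusted p = 0.869). Hsd11b1, whose enzyme regenerates active glucocorticoid inside cells, was at -0.31 ± 0.31 in VTA after 2 days (adjusted p = 0.858). In SN it was at 0.37 ± 0.31 from 2 to 10 days and at 0.41 ± 0.31 between 10 days and control. Nr3c1, the gene of the glucocorticoid receptor, was at -0.10 ± 0.18 in VTA between 10 days and control.

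Relatives of Fmo2 and Plin4 gave 0 calls. The flavin monooxygenase genes Fmo1, Fmo4 and Fmo5 were at 0.62 ± 0.32, 0.00 ± 0.20 and 0.02 ± 0.23 in SN after 2 days. In VTA they were at 0.12, 0.15 and -0.39, with a smallest limma adjusted p of 0.711 after 2 days. From 2 to 10 days they were at -0.14, 0.10 and 0.38 in SN and at -0.22, -0.09 and 0.23 in VTA. Fmo1 thus had the signs of Fmo2, within 2 SE of 0, and Fmo5 rose where Fmo2 fell. Plin2, which encodes the perilipin of most non-fat cells, was opposite in sign to Plin4: it was at -0.38 ± 0.22 in SN and -0.60 ± 0.22 in VTA after 2 days (adjusted p = 0.801 and adjusted p = 0.528), and at 0.88 ± 0.22 in VTA from 2 to 10 days (adjusted p = 0.397). Plin3 and Plin5 lay between -0.32 and 0.39 in these comparisons.

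Relatives of the other genes also gave 0 calls. Sgk2, a kinase related to Sgk1, was at -1.0 ± 0.24 in VTA after 2 days (adjusted p = 0.305) and at 0.78 ± 0.24 from 2 to 10 days (adjusted p = 0.57), with no overlap in either. Tsc22d4, of the Tsc22d3 family, was at -0.28 ± 0.14 in SN and -0.25 ± 0.14 in VTA from 2 to 10 days, without overlap in either region (adjusted p = 1.0 and adjusted p = 0.836). Slc30a1, a zinc exporter driven by the same metal response as Mt2, was at 0.43 ± 0.17 in SN and 0.44 ± 0.17 in VTA from 2 to 10 days (adjusted p = 1.0 and adjusted p = 0.706), while Mt1 was at -0.18 and -0.10. Mt3, the metallothionein of brain, was at 0.63 ± 0.24 in SN after 2 days (adjusted p = 0.68). The other pyruvate dehydrogenase kinase genes lay between -0.23 and 0.28 after 2 days, and Sult4a1, the neuronal sulfotransferase gene, was at -0.48 ± 0.15 in SN between 10 days and control (adjusted p = 0.833).

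Within groups the 10 genes formed no single block. Over the 45 pairs the median correlation across the 18 arrays was 0.37, and 0.15 once each group's mean was subtracted, with 32 of 45 pairs above 0 and a range of -0.35 to 0.78. These coefficients describe arrays that share a normalisation and possibly mice, and carry no test. Fmo2 and Plin4 correlated at 0.78 over the 18 arrays but at -0.01 within groups. Plin4 and Sult1a1 correlated at 0.78 within groups (Spearman 0.80, and 0.79 without the 2 arrays farthest from the Plin4 median). Sgk1 and Zbtb16 were at 0.59 (Spearman 0.61, 0.72 without 2 arrays). Zbtb16 and Pdk4 were at 0.69 and Fkbp5 and Tsc22d3 at 0.68, and these eased to 0.46 and 0.32 without 2 arrays.

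**Figure D5:**
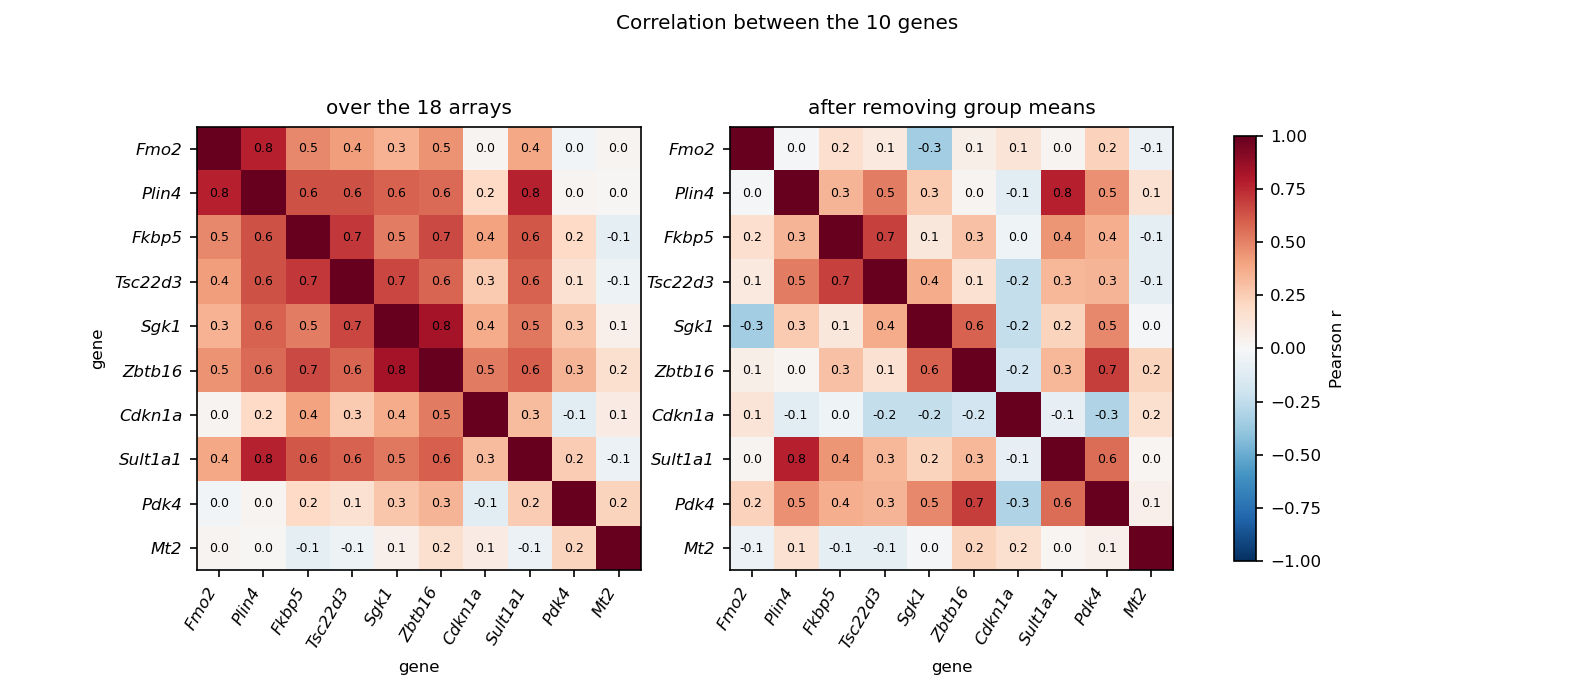
Pearson correlation between each pair of the 10 genes (colour and printed value, both axes list genes) over the 18 arrays on the left and after subtracting group means on the right. The square of Fmo2 and Plin4 goes from 0.78 to about 0, whereas that of Plin4 and Sult1a1 stays at 0.78.

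Plin4 and Sult1a1 also varied with markers of red blood cells. Within groups each correlated at 0.85 with the mean of 4 measured erythrocyte genes of 7 listed (Spearman 0.84 and 0.85, and 0.86 and 0.85 without 2 arrays), at 0.64 and 0.66 with 8 pericyte genes, and at 0.57 and 0.60 with microglia genes. Fkbp5 and Tsc22d3 correlated at 0.51 and 0.53 with the erythrocyte mean. By group, the erythrocyte mean ran from 0.09 to 0.64 on SN control arrays, from -0.35 to -0.02 after 2 days and from -0.43 to 0.39 after 10 days. In VTA it ran from -0.13 to 0.36, from -0.19 to 0.13 and from -0.45 to 0.06. After 2 days 0 of 4 erythrocyte genes were higher in SN and 1 of 4 in VTA, and pericyte genes were lower, by medians of 0.18 and 0.42 on the log2 scale, with 6 and 7 of 8 lower. Against control after 10 days, 4 of 4 erythrocyte genes were lower in both regions, with medians of -0.46 and -0.18. The part of blood in the Plin4 and Sult1a1 values after 2 and after 10 days was not tested.

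Markers of other cells that answer glucocorticoids differed unevenly between treatments. The mean of 15 endothelial genes of 17 listed ran from -0.08 to 0.11 in SN controls and from -0.04 to 0.04 after 2 days, and from -0.15 to 0.15 and from -0.40 to -0.03 in VTA. Astrocyte genes, 16 of 16 measured, had medians of 0.17 in SN, with 13 higher, and -0.16 in VTA, with 14 lower, after 2 days. Astrocyte medians from 2 to 10 days were at -0.07 and 0.12. Oligodendrocyte genes, 13 of 15 measured, were mostly lower than control. After 2 days 11 of 13 were lower in SN and 13 of 13 in VTA (medians -0.21 and -0.39). After 10 days 12 of 13 were lower in both regions (medians -0.18 and -0.27). Their mean ran from -0.05 to 0.47 in SN controls, -0.11 to 0.06 after 2 days and -0.14 to 0.05 after 10 days, and from 0.00 to 0.51, -0.34 to -0.10 and -0.20 to 0.14 in VTA. Of 13 measured microglia genes, 7 were lower in SN and 10 in VTA after 2 days (medians -0.02 and -0.30), and 4 and 6 after 10 days. In these lists 0 genes passed in any of these comparisons, and their part in the results was not tested. Within groups Mt2 correlated at 0.68 with the astrocyte mean (Spearman 0.66, 0.59 without 2 arrays), and at 0.55 with microglia, 0.53 with endothelium and 0.52 with ependyma and choroid plexus genes.

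Genes outside the set with the most similar course were picked by correlation over the 18 arrays. Closest to the mean of the 10 genes were Arid5b (r = 0.86), Map7 (0.84), Txnrd1 (0.84), Gpt2 (0.83), the glucose transporter gene Slc2a1 (0.82) and Sdc4 (0.80). Closest to Fmo2 were the clock gene Per2 (0.90), the synaptic zinc transporter gene Slc30a3 (0.83) and Zfp319 (0.83). Per2 means were 0.85 in SN and 0.71 in VTA after 2 days, against -0.19 and 0.00 in controls and -0.12 and -0.43 after 10 days. Closest to Plin4 were the alanine aminotransferase gene Gpt2 (0.84), Rsf1 (0.80) and the endoplasmic reticulum gene Sdf2l1 (0.79). These genes were found by their likeness, which is therefore given with no test.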

How the data were processed

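The labels gave 6 groups of 3 arrays of laser-captured neurons, and replicate numbers were taken from the titles. The deposited values are log2 signals that the authors log2 transformed and normalised by RMA with GeneSpring GX 10.0. This comes from the design text of the series, and the submitters' processing notes list RMA as well. Centring was found from the values: the median of every probe set is 0 to within 5e-07. The annotation build behind the values is not given in the sources. RNA was amplified before labelling, per the labels' protocols.

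Of 45101 probe sets, 34945 carried 1 gene symbol in the platform annotation, 932 several and 9160 none, and 64 control probe sets were left out. A gene's value is the mean of its probe sets with 1 symbol, which lowers a difference where some probe sets read a transcript poorly. With no levels known, dim probe sets could not be removed. One limma 3.58.1 model (lmFit and eBayes, R 4.3.3) of 6 group means was fitted to 18193 genes over 18 arrays, with 12 residual degrees of freedom and 4.06 added by the prior. P-values are two-sided and Benjamini-Hochberg adjusted over all genes, with a threshold of 0.05. They measure only the spread between these arrays. The fit was tested on simulated data. Tables and figures were made with Python 3.11.15, pandas 2.3.3 and matplotlib 3.10.9.

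The members and all gene lists (20 lists of 215 genes, 194 of them measured) were chosen with earlier results of these data known. The rule names all 10 members. Of each pathway list it names the 3 genes of smallest p in each direction in the comparisons of treatments, and any gene that passed; for length not all are printed. The rule for likeness takes the 6 genes closest to the members' mean and the 3 closest to Fmo2 and to Plin4, skipping clones and predicted genes. Alternatives were single probe sets, the probe set of largest SD, only the groups compared, array weights, centring of each array, a repeated quantile normalisation, a replicate block, and omission of single arrays or of the 2 arrays of widest spread. A random block of same-numbered SN and VTA arrays was added after seeing the data.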

Additional observations from a re-analysis of the deposited data

How the results depend on the processing

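The 10 genes were tested only between regions, and 0 passed there in every alternative run. Their differences between treatments were not tested. Other targets were counted for 2 days against control and for 10 against 2 days. Their count stayed at 0 except with array weights. From 2 to 10 days the weights called 1 other target in SN (Sdc4) and 3 over both regions. With weights 24 of 18193 genes were called in SN and 125 over both regions there, against 3 and 23 without weights. The median member difference after 2 days was 0.11 in SN (0.02 to 0.25 with 1 array left out). In VTA it was -0.08 (-0.21 to 0.1), and it turned to 0.1 without the 2 arrays of widest spread, as it did without VTA 2 day array 1 alone. From 2 to 10 days it went from -0.64 to -0.9 in SN and from -0.48 to -0.76 in VTA with the probe set of largest SD (-0.82 to -0.55 and -0.64 to -0.38 with 1 array left out); that probe set has by construction the widest range. Against control after 10 days it was -0.62 in SN (-0.67 to -0.4) and -0.55 in VTA (-0.66 to -0.38), and -0.38 in SN over single probe sets, where genes with several probe sets count more than once. Of 855 single values of members under alternatives, 839 stayed within 1 SD of a group's arrays and 16 moved further. With 1 array left out, 15 of the 60 member differences between treatments changed sign. With a replicate block the 6 medians were 0.11, -0.08, -0.64, -0.48, -0.62 and -0.55. With this block and with a random block, 0 of the 10 genes passed between regions and 0 other targets passed. Of all 18193 genes the replicate block called 0, 4, 3, 9, 0 and 0 in these 6 comparisons. The random block called 0, 2, 4, 6, 2 and 0. Same-numbered SN and VTA arrays deviated together with r from 0.05 to 0.399, over 0.1 in 7 of 9 pairs, and 17 of 18 arrays matched their own number best; this is a hint from the data, and the numbers were not taken as pairs. The lack of levels and 3 arrays per group limit all values.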

Other observations

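Targets of the tumour suppressor gene Trp53 and other kinase inhibitor genes were listed beside Cdkn1a, and 13 of 14 were measured with 0 passing. Between 10 days and control their median was -0.11 in SN and 0.01 in VTA, where Cdkn1a was at -1.29 and -0.93. Trp53inp1 was at -0.39 ± 0.20 in SN (adjusted p = 0.911), Sesn2, a stress-induced inhibitor of growth signalling, at -0.43 ± 0.29 (adjusted p = 0.949) and Mdm2, which encodes the ligase that limits the Trp53 protein, at 0.18 ± 0.20 (adjusted p = 0.981).

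Genes of fasting and of fat oxidation were listed beside Pdk4, with 12 of 14 measured and 0 passing. After 2 days their medians were -0.11 in SN and -0.29 in VTA, with 9 of 12 lower in VTA. Cpt1a and Cpt2, whose enzymes carry fatty acids into mitochondria, were at -0.59 ± 0.27 and -0.58 ± 0.27 in VTA (adjusted p = 0.612 and adjusted p = 0.613). Angptl4, which glucocorticoids and fasting both induce in other tissues, was at 0.09 ± 0.16 in SN after 2 days (adjusted p = 0.955).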
